A study of Bos taurus with 4 samples.

Results

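The genes described here are the cytokines, chemokines, interferon genes and complement genes of bovine subcutaneous fat, together with their receptors and signalling partners. They were taken as every UniGene cluster whose deposited description held 1 of 6 terms, which were chemokine, interleukin, tumor necrosis factor, interferon, toll-like receptor and complement component. Clusters that were expressed sequence tags only were left out, as was complement component C3. This gave 205 clusters of 36373 in all, where a cluster is a group of transcripts represented by 1 sequence. The rule reads names, and so it also took 7 C1q and TNF related proteins, which are secreted proteins of another family, and 14 further genes that only carry the word in their name, such as ILF2 and C1QBP. The remaining members fell into 13 role groups, from 19 chemokine ligands and 24 chemokine receptors to 14 complement components and complement receptors. Genes that are described in other words, such as FAS, were not found by the rule.

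Fat came from Qinchuan cattle, a Chinese beef breed, and formed 4 groups with 1 RNA-seq library each. ATFB was made from fetuses of 200 to 250 days, and ATAB, ATAH and ATAS from adult bulls, adult heifers and adult steers of 18 to 24 months. Steers are castrated males, and the labels give no sex for the fetuses. In each group 5 animals were pooled into 1 library, so there were no replicates. Any difference between 2 libraries is therefore without a check on the spread among animals.

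Chemokines are small secreted proteins that guide migrating cells through receptors in the membrane, and they are sorted by the spacing of the first cysteines of the mature protein. Interleukins and the TNF family carry signals between immune cells and tissue cells. Interferons, once bound to their receptors, switch on a broad set of antiviral genes through STAT proteins and interferon regulatory factors. Toll-like receptors recognise microbial molecules, and complement is a chain of plasma proteins that tags and lyses targets and is made in part by fat. In adipose tissue such genes are expressed by adipocytes, vessel cells and resident leukocytes.

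The cysteine spacing that gives the chemokine classes their names could be read from the deposited sequences of the ligands with the largest values and differences. The lines show the coding strand, 5′ to 3′, with the codons of the first cysteine pair of the motif in capitals. In the CC class the codons are adjacent.
CCL14: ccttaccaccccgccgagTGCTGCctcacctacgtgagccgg
CCL23: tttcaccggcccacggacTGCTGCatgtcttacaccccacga
CCL21: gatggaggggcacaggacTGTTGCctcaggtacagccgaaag
CCL1: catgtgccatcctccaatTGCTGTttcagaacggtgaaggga
LOC616364: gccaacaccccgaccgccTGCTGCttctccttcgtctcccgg
In the CXC class 1 codon lies between them.
CXCL12: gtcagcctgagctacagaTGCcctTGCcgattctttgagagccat
CXCL14: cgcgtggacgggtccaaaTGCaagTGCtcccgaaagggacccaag
CXCL5: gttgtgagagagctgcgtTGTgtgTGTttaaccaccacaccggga
IL8: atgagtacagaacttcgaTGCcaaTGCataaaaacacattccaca
CXCL10: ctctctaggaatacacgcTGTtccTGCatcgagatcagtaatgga
CX3CL1, the single ligand of its class here, has 3 codons between them.
CX3CL1: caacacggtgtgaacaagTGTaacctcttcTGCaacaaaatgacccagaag

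The libraries held between 15.3 M and 16.1 M counted reads. The share that fell on members was 0.760%, 0.571%, 0.682% and 0.903% for the fetal, bull, heifer and steer library, and 4 values without further labels follow this order throughout. A total of 164 of the 205 members had a read in every library. Levels are given in RPKM, which scales the reads of a cluster by its length and by the counted reads of the library. The level of 100 RPKM was reached by 11, 7, 6 and 10 members. In ATFB 59 members were at 10 RPKM or more, as were 59 in ATAB, 66 in ATAH and 80 in ATAS. A count of 0 allows up to 3 reads, which is about 0.19 RPKM on a sequence of 1 kb, and 37 members had fewer than 20 reads over the 4 libraries together.

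Read by role, the highest members were CCL14, with 332 RPKM in ATAS, and the complement proteases C1R and C1S, with 287 and 269 RPKM in ATAS. They were followed by the scavenging chemokine receptor CXCR7, also called ACKR3, with 215 RPKM in ATAS. The chemokine CXCL12, the interferon-induced membrane protein IFITM1 and the receptors TNFRSF1A and IFNGR1 also passed 100 RPKM in at least 1 library. By contrast, the interferons themselves and several interleukins were near or under the limit that 3 reads allow.

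For each pair of libraries the reads of every cluster were compared by an exact binomial test, and a cluster was called at a false discovery rate of 0.001 or less together with a ratio of RPKM that differed from equality by 1 or more on the log2 scale. Calls use the library totals as the scale unless another is named. Such a call sets 1 pooled library against another and says nothing of the animals behind them. From ATFB to ATAB 35 members were called higher and 31 lower, so 66 of the 196 members tested were called, against 22.6% of all 34096 clusters (9.51% higher and 13.1% lower). Against ATFB, ATAH had 47 members called higher and 21 lower, with a background of 23.7% called, 13.9% higher and 9.83% lower. ATAS had 64 members called higher than in ATFB and 18 lower, with a background of 26.0% called, 15.5% higher and 10.5% lower. Of the members tested, 17.9%, 23.6% and 31.7% were called higher in these 3 comparisons and 15.8%, 10.6% and 8.91% lower. With library totals the share called higher was above the background for all 3 adult libraries and largest for ATAS. With ACTB as the scale ATAB had 24 members called higher than in ATFB and 40 lower, and with halved reads 21 and 28.

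Between adult libraries the calls went mostly toward ATAS. ATAS had 50 members called higher than in ATAB and 5 lower, which is 25.5% and 2.55% of the members tested, against 8.72% of all clusters called, 6.86% higher and 1.87% lower. Against ATAH, 18 members were called higher in ATAS and 3 lower, which is 9.05% and 1.51% of those tested, with a background of 3.0% called, 1.52% higher and 1.48% lower. ATAH against ATAB gave 29 members higher and 9 lower, or 14.8% and 4.59%, with a background of 5.37% called, 4.14% higher and 1.23% lower. With TMM factors in place of library totals, the last comparison gave 17 higher and 13 lower.

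The median log2 ratio of the members with at least 20 reads in the pair was 0.12 for ATAB over ATFB, 0.20 for ATAH over ATFB and 0.64 for ATAS over ATFB. Over all clusters it was -0.17, 0.10 and 0.14. Between adult libraries the member medians were 0.36 for ATAH over ATAB, 0.68 for ATAS over ATAB and 0.36 for ATAS over ATAH, beside 0.28, 0.33 and 0.06 over all clusters. With TMM factors the medians for ATAH and ATAS over ATAB were 0.085 and 0.39, and those for ATAB and ATAH over ATFB were 0.29 and 0.10. With the reads of ACTB as the scale, the medians for ATAB and ATAH over ATFB turned to -0.12 and -0.071. Of the 168 members with at least 20 reads in all, 91 (54.2%) had their highest RPKM in ATAS, compared with 32.9% of all 26001 clusters of that depth. ATFB was the lowest library for 81 of them (48.2%), beside 38.6% of all clusters.

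**Figure D1:**
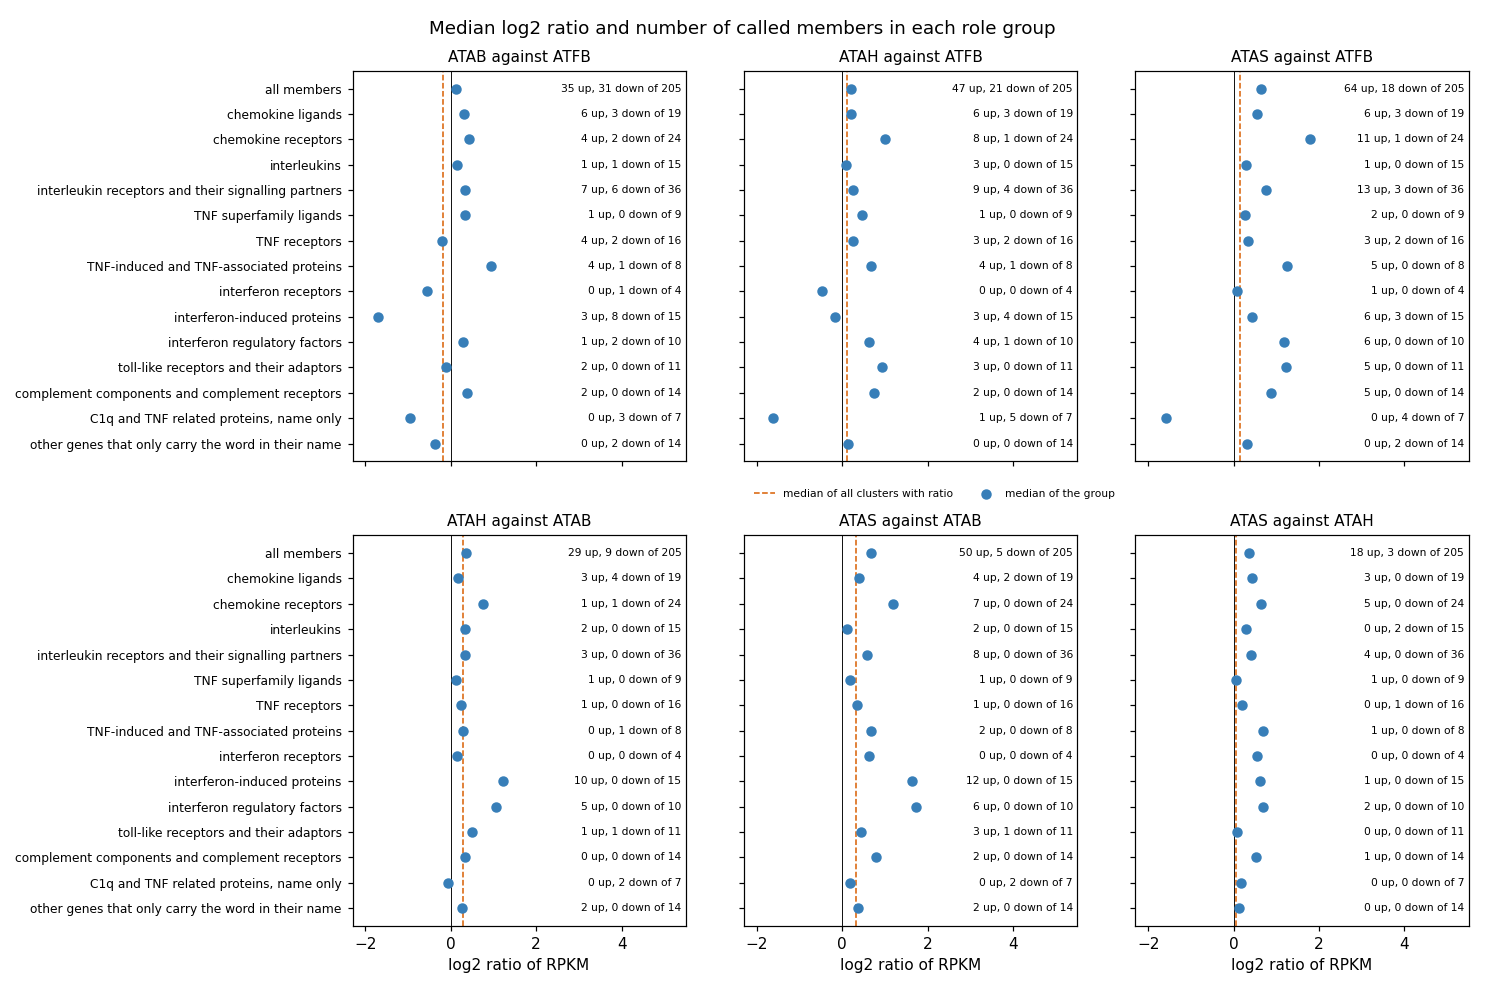
Median log2 ratio of RPKM in each role group (points) for the 6 pairs of libraries, with the median of all clusters as a dashed line, over members with at least 20 reads in the pair. The text in each row gives how many members of the group were called higher or lower, and interferon-induced proteins stand at -1.70 for ATAB against ATFB and at 1.64 for ATAS against ATAB.

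Chemokine ligands split into members that were low in the adults and members that were high. CXCL14, a chemokine of epithelia and fat that acts on monocytes, had 103, 35.0, 4.92 and 38.0 RPKM. The heifer library was the low one, at 21.0-fold below ATFB (log2 ratio -4.39, 95% interval -4.66 to -4.14) and 7.12-fold below ATAB. CCL21, which lymphatic vessels make to draw in cells with CCR7, had 77.0, 28.0, 8.53 and 34.5 RPKM in the same order. It too was lowest in ATAH, 9.02-fold below ATFB and 4.04-fold below ATAS. For both ligands ATFB was called higher than each adult library and ATAH lower than each other library, while ATAB and ATAS differed by log2 ratios of 0.12 and 0.30, which were not called. Bars and intervals cover counting error only, here and throughout.

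CXCL5 and IL8, also called CXCL8, attract neutrophils through the same type of receptor. CXCL5 had 110, 55, 4 and 7 reads, which was 28.1-fold lower in ATAH than in ATFB. IL8 had 33, 75, 16 and 22 reads, and the bull library was 4.53-fold above ATAH and 3.28-fold above ATAS. Thus both neutrophil ligands were called higher in ATAB than in the other adult libraries. The receptor CXCR1 had 22, 9, 8 and 8 reads and was called in no pair, and a second cluster described as an IL8 receptor, 97.9% identical to CXCR1 over 1698 bases, had 4, 9, 0 and 4 reads, so reads could be divided between them.

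Other ligands were higher in adult fat. CCL14, an attractant of monocytes, had 124, 143, 322 and 332 RPKM, which was 2.60-fold higher in ATAH and 2.69-fold higher in ATAS than in ATFB. CXCL10, a ligand that interferon induces, had 4, 10, 51 and 76 reads, and ATAS was 18.7-fold above ATFB (log2 ratio 4.22, 2.81 to 6.13) and 7.89-fold above ATAB. LOC616364, described as similar to CCL3L1, had 0, 14, 8 and 61 reads with a log2 ratio of at least 4.32 for ATAS over ATFB. The steer library was also called above the bull and heifer libraries for it, at 4.52-fold and 7.64-fold. CCL1, the ligand of CCR8, was instead highest in ATAH, with 13, 17, 68 and 31 reads.

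CXCL12 and CCL23 were abundant and, with library totals, were called in no pair. CXCL12, which holds CXCR4-bearing cells in tissue, had 142, 83.9, 165 and 114 RPKM, and its widest gap was 1.96-fold between ATAB and ATAH. CCL23 had 123, 169, 84.9 and 112 RPKM with a widest gap of 1.99-fold between the same libraries in the opposite direction, a gap that was called under each of the other 3 scalings. Of the 19 ligands, 6 were called higher and 3 lower than in ATFB for each adult library, or 31.6% and 15.8% of the ligands, beside 9.51%, 13.9% and 15.5% of all clusters called higher and 13.1%, 9.83% and 10.5% lower. Only 2 of the 6 kept the call in ATAB under all 4 scalings. CX3CL1, CCL24 and CCL5 are described after their values were seen. CX3CL1, which is tethered to endothelium, had 4.88, 11.3, 15.8 and 21.4 RPKM, the eosinophil attractant CCL24 had 1.71, 8.62, 9.63 and 10.9 RPKM, and the T cell attractant CCL5 had 3.29, 7.51, 13.7 and 24.1 RPKM.

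Among chemokine receptors, the atypical ones, which bind ligands without the usual signal, carried the most reads. CXCR7 had 200, 160, 150 and 215 RPKM and was called in no pair. DARC, also called ACKR1 and expressed by red cells and venules, had 64.6, 63.7, 99.8 and 149 RPKM, and its calls in ATAS were lost under at least 1 of the other 3 scalings. CCBP2, also called ACKR2, which degrades inflammatory CC chemokines in lymphatic vessels, had 22.8, 9.74, 3.68 and 8.77 RPKM. It was highest in ATFB and lowest in ATAH, 6.19-fold apart (log2 ratio -2.63, -3.00 to -2.28), and so had the same order of extremes as CXCL14 and CCL21.

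Most signalling chemokine receptors were low in ATFB. CX3CR1, the receptor of CX3CL1 on monocytes, had 0.359, 1.70, 1.01 and 4.48 RPKM. The steer library was 12.5-fold above ATFB, 2.64-fold above ATAB and 4.42-fold above ATAH. CCR1, a receptor of myeloid cells, had 2 clusters, and the one with more reads had 173, 276, 184 and 371 of them, while the other had 4, 21, 37 and 67 reads. Both were highest in ATAS. Of the 24 receptors, 11 (45.8%, beside 15.5% of all clusters) were called higher in ATAS than in ATFB and 1 lower, 8 of the 11 under all 4 scalings, and the group median log2 ratio of 1.80 compares with 0.14 over all clusters. A total of 7 were called higher in ATAS than in ATAB and 5 higher than in ATAH, with none lower, or 29.2% and 20.8% beside 6.86% and 1.52% of all clusters. Under all 4 scalings 3 of the 7 (CX3CR1, CCR6 and the CCR1 cluster with fewer reads) and 4 of the 5 kept the call. CMKLR1 and CXCR4 were singled out after their values were seen. CMKLR1, the receptor of chemerin, had 20, 98, 83 and 192 reads, and CXCR4, the receptor of CXCL12, had 280, 99, 173 and 232 reads and was called lower in ATAB than in ATFB, 2.99-fold.

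Interleukins were few and mostly low. IL33, an alarm signal of stromal cells, led with 24.6, 11.8, 17.1 and 21.9 RPKM. IL34, a ligand of the CSF1 receptor, had 9.21, 10.1, 9.94 and 12.7 RPKM, and IL16 had 3.88, 3.64, 3.67 and 4.29 RPKM. Neither of the last 2 was called in any pair. IL32 had 2.48, 3.16, 9.44 and 12.8 RPKM and was called higher in ATAH and in ATAS, against ATFB as well as ATAB, up to 5.17-fold between ATFB and ATAS.

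A second cluster described as similar to IL32, LOC100139916, had a different order, with 33, 89, 222 and 53 reads. IL17B likewise had its highest count in the heifer library, with 28, 62, 111 and 48 reads. In ATAH these were 4.18-fold and 2.31-fold higher than in ATAS, and they were the 2 interleukins called lower in ATAS than in ATAH. Of members outside the rule for named genes, IL2, IL5 and IL12B had 1 read each in all libraries together, and IL1B had 6, 21, 10 and 15 reads.

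The interleukin receptors and signalling partners with the most reads stayed under the limit of a call, although IL4R and STAT6 came near it between ATAB and ATAS. IL13RA1 had 95.1, 68.7, 66.7 and 75.3 RPKM. The IL4 receptor chain IL4R had 23.9, 20.7, 31.6 and 38.6 RPKM and its transcription factor STAT6, whose description carries the word interleukin, had 33.4, 28.7, 38.9 and 56.6 RPKM. IL1R1, the signalling receptor of IL1, had 21.9, 14.8, 17.5 and 23.4 RPKM. None of these 4 was called in any pair.

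IL2RB, IL7R and IL10RA stood low in the fetal library, whereas IL2RA was called above it in ATAS alone. IL2RB, a chain of the IL2 and IL15 receptors, had 0, 24, 75 and 87 reads, at least 28.5-fold higher in ATAS than in ATFB. IL7R, which T cells need for survival, had 0, 12, 46 and 69 reads, at least 22.6-fold higher in ATAS than in ATFB and 5.97-fold higher than in ATAB. IL2RA had 19, 26, 23 and 74 reads and was called higher in ATAS than in each other library. IL10RA, the receptor chain through which IL10 restrains macrophages, had 0.803, 5.18, 4.89 and 10.6 RPKM. The steer library was highest for all 4 of them.

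Receptors of the IL17 family and IL6R were also lowest in ATFB. IL17RE, an epithelial receptor of IL17C, had 8, 206, 362 and 469 reads, so the adult libraries were 24.4-fold, 44.3-fold and 57.6-fold higher. IL17RD, which modulates FGF and IL17 signals, had 5, 55, 46 and 41 reads. IL17RB, the receptor of IL17B and IL25, had 8, 21, 28 and 124 reads, and ATAS was 15.2-fold above ATFB and 4.44-fold above ATAH. IL6R, the binding chain of the IL6 receptor, had 2.87, 5.48, 12.1 and 27.4 RPKM. It was called higher in ATAS than in each other library, by 9.55-fold, 5.01-fold and 2.26-fold relative to ATFB, ATAB and ATAH.

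In the opposite direction, IL1R2, a decoy receptor that captures IL1, had 109, 3, 6 and 16 reads. The log2 ratio to ATFB was -5.26 in ATAB (95% interval -7.56 to -3.68), -4.21 in ATAH and -2.79 in ATAS. IRAK1BP1, a binding partner of the IL1 receptor kinase IRAK1, had 61, 18, 23 and 31 reads and was called lower in ATAB and ATAH than in ATFB. Over the 36 members of the group, 7, 9 and 13 were called higher than in ATFB in ATAB, ATAH and ATAS, or 19.4%, 25% and 36.1% beside 9.51%, 13.9% and 15.5% of all clusters, and 6, 4 and 3 lower. The lower calls were 16.7%, 11.1% and 8.33%, near the 13.1%, 9.83% and 10.5% of all clusters, and in ATAB 4 of the 6 held under all 4 scalings.

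**Figure D2:**
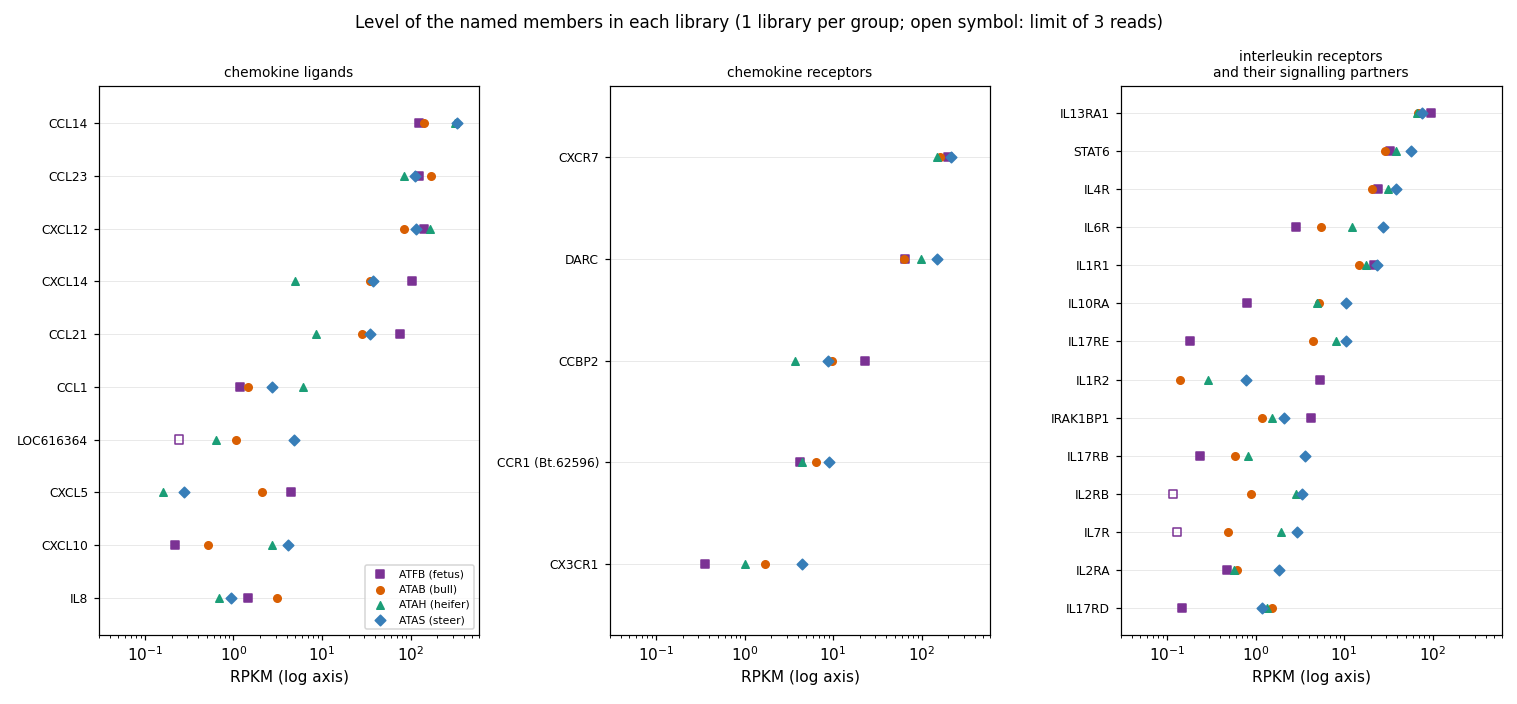
RPKM (log axis) of the chemokine ligands, chemokine receptors and interleukin receptors named by the rule, 1 point per library. CXCL14 lies at 103 RPKM in ATFB and 4.92 RPKM in ATAH, whereas IL2RB and IL7R have an open square at the limit of 3 reads in ATFB.

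TNF itself was barely detected, with 1, 8, 8 and 11 reads. The TNF family ligand with the most reads was TNFSF10, or TRAIL, which can trigger cell death, with 17.3, 21.0, 46.7 and 53.9 RPKM. It was called higher in ATAH and ATAS than in ATFB, at 2.70-fold and 3.11-fold. TNFSF12, or TWEAK, and TNFSF13, or APRIL, had 167, 211, 163 and 156 reads and 129, 177, 140 and 159 reads and were called in no pair. TNFSF8, the CD30 ligand, had 10, 47, 22 and 74 reads, 7.27-fold higher in ATAS than in ATFB and 3.37-fold higher than in ATAH.

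The 2 receptors of TNF behaved differently from each other. TNFRSF1A, which most cells express, had 106, 65.2, 71.3 and 82.0 RPKM and was called in no pair. TNFRSF1B, the receptor of leukocytes and endothelium, had 5.06, 25.8, 25.3 and 41.6 RPKM, so that the adult libraries were above ATFB by log2 ratios of 2.35, 2.32 and 3.04. TNFRSF21, or death receptor 6, had 6.87, 37.3, 29.5 and 42.5 RPKM, and the adult libraries were 5.43-fold, 4.30-fold and 6.19-fold higher. For both, no pair of adult libraries was called.

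Other TNF receptors varied among the adults. TNFRSF4, or OX40, of activated T cells, had 130, 79, 211 and 193 reads and was called above ATAB in both ATAH and ATAS. TNFRSF6B, a soluble decoy, had 195, 58, 103 and 30 reads and was 6.62-fold lower in ATAS than in ATFB and 3.43-fold lower than in ATAH. A cluster described as similar to TNFRSF10D had 9.93, 13.4, 17.2 and 19.8 RPKM and was called in no pair. It shares 639 bases at 96.1% identity with LOC782568, so reads of these 2 clusters could be divided between them. LOC782568 was called higher in all 3 adult libraries than in ATFB, under all 4 scalings.

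Among proteins that TNF induces, TNFAIP3, or A20, which shuts down NF-kB signalling, had 81, 395, 495 and 744 reads. The adult libraries were 4.61-fold, 5.99-fold and 9.02-fold above ATFB. TNFAIP2 had 2.66, 4.65, 5.84 and 10.5 RPKM and TNFAIP1 had 7.47, 15.6, 17.2 and 20.6 RPKM, both lowest in ATFB and highest in ATAS. The cluster of TNFAIP2 shares 773 bases at 98.7% identity with LOC100337435, described as TNFAIP2-like. TNFAIP8L3, a lipid transfer protein, was lowest in ATAH, with 11.9, 6.11, 2.96 and 6.23 RPKM. TNFAIP8L1 had 7.70, 3.33, 4.17 and 6.62 RPKM and was called lower in ATAB than in ATFB, 2.31-fold.

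The interferon ligands were at the limit of detection. IFNW1 had 1, 6, 3 and 0 reads, IFNAA had 0, 0, 3 and 2, and IFNK had 1, 0, 2 and 0. Their receptors were present. IFNGR1, the ligand-binding chain for interferon gamma, had 116, 55.8, 71.1 and 74.5 RPKM, and its call in ATAB was lost under at least 1 other scaling. It shares 237 bases at 91.6% and 90.3% identity with the clusters of IL1A and IL1B. IFNAR2 had 13.8, 9.35, 9.90 and 14.6 RPKM and was called in no pair, whereas IFNAR1 had 4.92, 8.94, 9.84 and 14.5 RPKM and was called higher in ATAS than in ATFB, 2.95-fold.

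Interferon-induced proteins separated the bull library from the others. Of the 14 members with at least 20 reads, 11 had their lowest RPKM in ATAB and 9 their highest in ATAS. All 14 were higher in ATAS than in ATAB under each of the 4 scalings, and 12 of the 15 members (80%, beside 6.86% of all clusters) were called, 10 of them under every scaling. ATAH was above ATAB for 14 of 14 with library totals or ACTB, and for 13 of 14 with TMM or DESeq2 size factors, and 10 were called higher (66.7%, beside 4.14% of all clusters), of which 6 under every scaling. The group median log2 ratio was 1.64 for ATAS over ATAB and 1.21 for ATAH over ATAB, beside 0.33 and 0.28 over all clusters.

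The IFIT family, which binds foreign RNA, did not have 1 common pattern against the fetal library. IFIT5 had 83.7, 13.3, 27.2 and 41.8 RPKM, and IFIT3 had 23.0, 4.41, 9.36 and 10.1 RPKM. Both were highest in ATFB and lowest in ATAB. IFIT1 had 345, 115, 457 and 850 reads and was 3.17-fold lower in ATAB and 2.42-fold higher in ATAS than in ATFB. IFITM1, which hinders virus entry, had 144, 23.2, 58.1 and 58.8 RPKM, and IFI16, a DNA sensor, had 88.7, 21.0, 32.7 and 59.4 RPKM. These 2 resembled IFIT5 and IFIT3 in their extremes.

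IFIH1, or MDA5, a sensor of double-stranded RNA, had 6.25, 3.99, 10.8 and 17.7 RPKM, and ATAS was 4.43-fold above ATAB. The exonuclease ISG20 had 50, 8, 42 and 148 reads and was 19.2-fold higher in ATAS than in ATAB (log2 ratio 4.26). Both had their lowest value in ATAB and their highest in ATAS.

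A pair of clusters described as very large GTPase 1-like stood apart, because they were almost absent from the fetal library. LOC783920 had 31, 749, 1701 and 2219 reads, and LOC508070 had 8, 244, 636 and 988 reads. The steer library was 70.3-fold and 121-fold above ATFB (log2 ratios 6.14 and 6.92). The 2 sequences match at 92.2% identity over 3778 bases, and reads could be divided between them.

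Among interferon regulatory factors the largest ratios belonged to IRF4. IRF4, a factor of B cells, T cells, macrophages and adipocytes, had 13, 109, 321 and 1596 reads or 0.604, 4.79, 14.6 and 72.8 RPKM. The steer library was 15.2-fold above the bull library (log2 ratio 3.93, 3.65 to 4.22) and 4.98-fold above the heifer library. LOC618409, described as IRF4-like, had 6, 20, 104 and 190 reads and the same order of libraries.

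IRF7 and IRF9, which carry the interferon signal itself, were low in ATAB. IRF7 had 40.7, 5.69, 19.2 and 30.9 RPKM, and IRF9 had 68.9, 19.7, 45.4 and 65.6 RPKM. The bull library was 7.15-fold and 3.50-fold below ATFB and 5.44-fold and 3.33-fold below ATAS. IRF3, which is activated by phosphorylation rather than by more transcript, had 79.9, 41.5, 46.6 and 72.7 RPKM and was called in no pair with library totals, but lower in ATAB and ATAH than in ATFB with ACTB. All 9 factors with a ratio were higher in ATAS than in ATAB and higher than in ATAH, under each scaling, and 6 and 2 of them were called (60% and 20% of the group of 10, beside 6.86% and 1.52% of all clusters), of which 5 and 1 under every scaling.

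**Figure D3:**
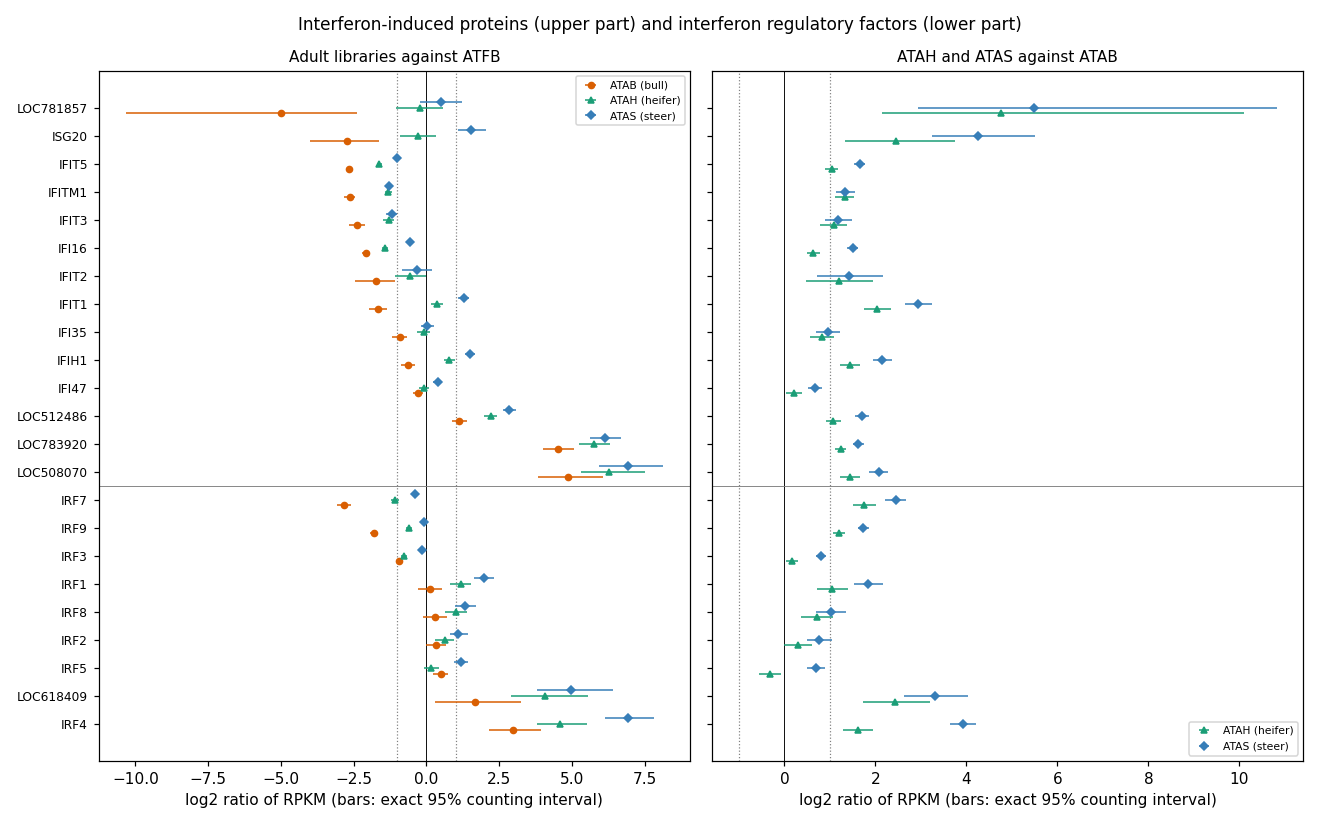
Log2 ratio of RPKM of interferon-induced proteins and interferon regulatory factors, with exact 95% counting intervals, for the adult libraries against ATFB (left) and for ATAH and ATAS against ATAB (right). Dotted lines mark a log2 ratio of 1 in size, and in the left part ATAB lies left of ATAH and ATAS for most members, as for IRF7 at -2.84.

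Other genes of the interferon response, from a list of 22 of which the rule takes ISG20 alone, gave 10 measured clusters. All 10 were called higher in ATAS than in ATAB, and 6 higher in ATAH than in ATAB, with none lower, beside 6.86% and 4.14% of all clusters called higher. They included OAS2 with 2.88, 1.21, 7.40 and 15.7 RPKM and RSAD2 with 30.6, 9.43, 30.4 and 42.7 RPKM. In ATAB 5 of the 10 were called lower than in ATFB and 1 higher, beside 13.1% and 9.51% of all clusters, so the higher share of 10% was at the background, and 4 of the 5 held under all 4 scalings. With TMM factors every log2 ratio of ATAS over ATAB is 0.29 smaller and of ATAH over ATAB 0.28 smaller, which takes PSMB8 in the first and TAP1 in the second comparison below 1.

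Toll-like receptors were dominated by the contrast of TLR8 with the rest. TLR8, an endosomal receptor of single-stranded RNA, had 21, 1790, 819 and 605 reads or 0.443, 35.7, 16.9 and 12.5 RPKM. It was 80.6-fold higher in ATAB than in ATFB (log2 ratio 6.33, 5.72 to 7.03), and it was the member of its group called lower in ATAH and ATAS than in ATAB, at 2.11-fold and 2.85-fold. Reads covered 34.8% of its sequence in ATFB and 96.6% or more in the adults. TLR6, a surface receptor that pairs with TLR2, had 6, 58, 88 and 75 reads.

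TLR4, the receptor of bacterial lipopolysaccharide, had 14.8, 11.1, 14.5 and 15.1 RPKM and was called in no pair. TICAM2 had 7.20, 5.53, 8.21 and 9.52 RPKM and TICAM1, the adaptor of TLR3 and TLR4, had 3.52, 3.89, 6.98 and 9.81 RPKM. TICAM1 was called higher in ATAS than in ATFB and ATAB. In the list of NF-kB and TLR signal genes, 20 were measured, and 2, 3 and 5 were called higher in ATAB, ATAH and ATAS than in ATFB with none lower. These are 10%, 15% and 25%, beside 9.51%, 13.9% and 15.5% of all clusters, so the first 2 shares were near the background, and 3 of the 5 calls in ATAS held under all 4 scalings, which is 15%. With ACTB as the scale NFKBIB was called lower in ATAB and ATAH than in ATFB, and RELB in ATAB. LBP, which hands lipopolysaccharide to the TLR4 complex, had the same order of libraries as TLR8, with 7.67, 186, 85.5 and 66.2 RPKM.

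The classical pathway genes C1R, C1S, C4A and C2 were at 37.5 RPKM or more in every library. Of the 14 complement members 2, 2 and 5 were called higher than in ATFB in ATAB, ATAH and ATAS with none lower, and 1, 2 and 4 of these calls held under all 4 scalings. With ACTB as the scale C4A was called lower in ATAH than in ATFB, at a log2 ratio of -1.02. The shares of 14.3%, 14.3% and 35.7% compare with 9.51%, 13.9% and 15.5% of all clusters, and the one in ATAH was near the background. C1R and C1S, the proteases that start the classical pathway, had 213, 138, 188 and 287 RPKM and 199, 137, 195 and 269 RPKM in ATFB, ATAB, ATAH and ATAS. C4A had 89.8, 56.3, 53.3 and 102 RPKM. These 3 were lower in ATAB than in ATAS, by 2.08-fold, 1.97-fold and 1.82-fold, and the call of C1R was lost under at least 1 other scaling. C2, the next protease of the chain, had 37.5, 55.9, 60.8 and 103 RPKM and was called higher in ATAS than in ATFB, 2.75-fold.

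C1QC, a chain of the recognition molecule C1q that macrophages make, had 38.8, 117, 152 and 185 RPKM. The adult libraries were 3.01-fold, 3.92-fold and 4.75-fold above ATFB and no adult pair was called. LOC507706, described as similar to C1R, had 6, 12, 15 and 64 reads and shares 1123 bases at 95.5% identity with C1R, so part of its reads may belong to that gene. The terminal components were scarce, with 6, 5 and 1 reads over all libraries for C5, C9 and C8B, while C7 had 12.5, 15.3, 12.2 and 18.5 RPKM.

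Complement genes whose descriptions lack the searched term include the regulators and the alternative pathway, of which 11 were measured. Against ATFB 4, 5 and 5 of them were called higher in ATAB, ATAH and ATAS and 2, 1 and 1 lower, and 2, 4 and 4 of the higher calls held under all 4 scalings. The higher shares of 36.4%, 45.5% and 45.5% stand beside 9.51%, 13.9% and 15.5% of all clusters, and the lower ones of 18.2%, 9.09% and 9.09% beside 13.1%, 9.83% and 10.5%. In the same order of libraries CFB had 459, 150, 105 and 80.5 RPKM and CFD, or adipsin, had 28.1, 61.7, 98.1 and 115 RPKM. Against ATFB the first was called lower and the second higher in all 3 adult libraries, but the call of CFD in ATAB was lost under at least 1 other scaling. Clusterin, CLU, had 527, 2001, 3820 and 2669 RPKM, the lectin pathway protease MASP1 had 7.89, 30.7, 25.8 and 19.7 RPKM and the C5a receptor C5AR1 had 8.52, 18.5, 20.4 and 28.9 RPKM. All 3 were called higher in each adult library, with the calls of C5AR1 in ATAB and ATAH lost under at least 1 other scaling.

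**Figure D4:**
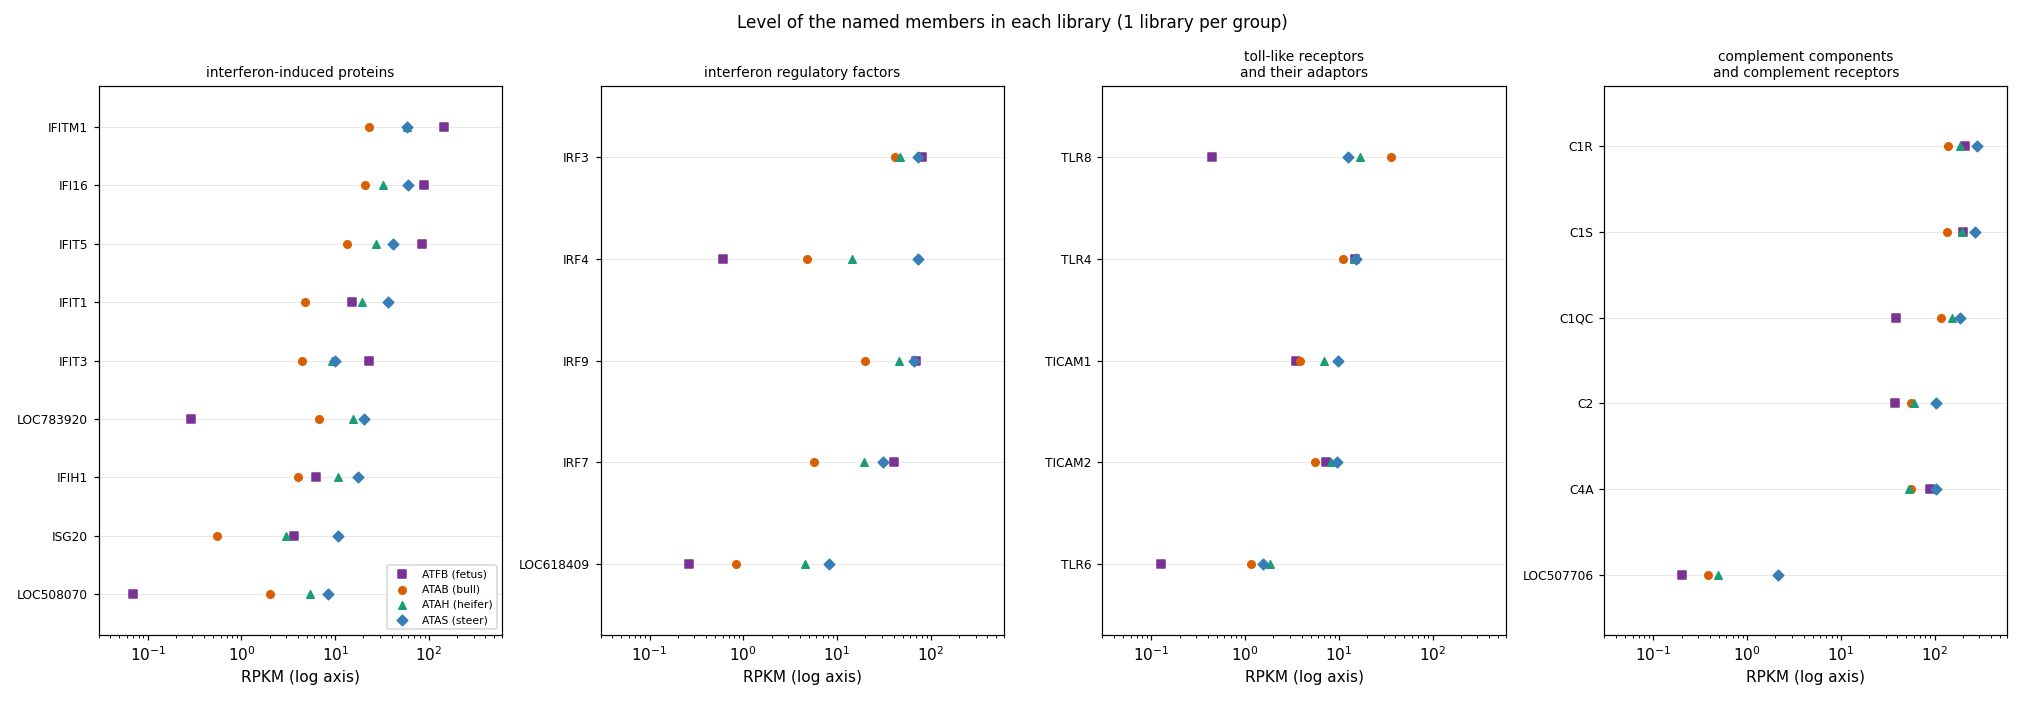
RPKM (log axis) of the named interferon-induced proteins, interferon regulatory factors, toll-like receptors and complement components, 1 point per library. IRF4 spreads from 0.604 RPKM in ATFB to 72.8 RPKM in ATAS, TLR8 is highest in ATAB at 35.7 RPKM, and C1R and C1S stay above 100 RPKM in each library.

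The C1q and TNF related proteins, included for their name, were mostly lower in the adults. C1QTNF5 had 88.5, 23.3, 29.0 and 29.6 RPKM, C1QTNF3 had 17.5, 4.19, 4.24 and 4.79, and C1QTNF7 had 32.9, 13.2, 12.7 and 19.3 RPKM. These 3 were highest in ATFB. C1QTNF6 and C1QTNF2 were higher in the fetal and bull libraries, with 57.9, 29.7, 6.34 and 6.77 RPKM and 19.0, 11.7, 3.23 and 3.88 RPKM. Both were called lower in ATAH and ATAS than in ATAB. C1QTNF1 had 114, 121, 80.2 and 95.9 RPKM and was called in no pair.

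Of the 14 genes that only carry a searched word, 0 were called higher than in ATFB in any adult library, and 2, 0 and 2 were called lower in ATAB, ATAH and ATAS. The share of 14.3% in ATAB and in ATAS was near the 13.1% and 10.5% of all clusters. The 0 holds with library totals, as ILF2 was called lower in ATAH under each of the other 3 scalings, at log2 ratios of -1.05, -1.08 and -1.22, and 1 and 2 of the calls in ATAB and ATAS held under all 4. IFRD1 had 29.2, 15.5, 35.6 and 48.1 RPKM, ILF2, which binds RNA, had 64.0, 27.7, 33.2 and 30.3 RPKM, and IRF2BPL had 14.2 to 23.8 RPKM across the libraries.

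Fetal and adult fat were also compared with the 3 adult libraries as replicates of 1 stage, by edgeR's quasi-likelihood test with Benjamini-Hochberg adjustment over 25584 clusters. The spread among adults then includes sex and castration, and the fetal library is assumed to vary in the same way. At an adjusted p of 0.05 or less, 38 of 167 members were called against 18.2% of all clusters, 26 higher in the adults and 12 lower, or 15.6% and 7.19% of those tested beside 9.83% and 8.39%. Without ATAB 60 members were called (36.4%, beside 28.3% of all clusters), and without ATAH 26 (15.9%, beside 9.33%). The same test gave an unadjusted p under 0.05 for 70 members, or 41.9% beside 37.4% of all clusters.

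By role, interleukin receptors had 8 of 30 tested called higher and 4 lower in the adults, or 26.7% and 13.3% beside the 9.83% and 8.39% of all clusters. TNF receptors had 3 of 14 higher and 1 lower, or 21.4% and 7.14%, and the lower share was near the background. Interferon-induced proteins had 3 of 14 in each direction, or 21.4% each. Chemokine receptors and TNF-induced proteins had 3 higher each, of 17 and 8 tested, or 17.6% and 37.5%. Chemokine ligands, toll-like receptors and complement had 2 higher each, of 16, 9 and 10 tested. The chemokine ligand share of 12.5% was near the 9.83% of all clusters. The toll-like receptor share was 22.2%, and the complement share was also above 9.83%. None of the members in these groups was called lower. The remaining 4 calls were of 3 C1q and TNF related proteins and ILF2, all lower. These were 42.9% and 8.33% of those tested in their groups, and the second share was near the 8.39% of all clusters. Interleukins, TNF ligands, interferon receptors and interferon regulatory factors gave 0 calls of 11, 7, 3 and 9 tested, and IRF4 itself had an adjusted p of 0.073 by edgeR's quasi-likelihood test. By edgeR's quasi-likelihood test IL17RE had the smallest adjusted p of the members, 0.0085, with a log2 difference of 5.31 (SE 0.60). At the digits printed C1QTNF3 shared this adjusted p. Each SE is the size of the log2 difference divided by the square root of the test's F value, so it restates the test. By the same edgeR test TLR8 had a log2 difference of 5.65 (SE 0.99, adjusted p = 0.018), C1QC 1.91 (SE 0.33, adjusted p = 0.017) and TNFRSF1B 2.57 (SE 0.39, adjusted p = 0.014). Lower in the adults were IL1R2 at -3.79 (SE 0.65, edgeR adjusted p = 0.017), IFITM1 at -1.70 (SE 0.40, edgeR adjusted p = 0.035) and C1QTNF3 at -2.02 (SE 0.23, edgeR adjusted p = 0.0085).

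The summed markers of macrophages and of T cells were lowest in ATFB as well. The summed RPKM of 6 macrophage markers was 335.8, 836, 1098 and 1964, of which CD74 made the larger part. Without CD74 the other 5 summed to 130, 212, 198 and 301 RPKM, and of these CD68 and CSF1R were called higher in ATAS than in ATFB, whereas CD14 and MSR1 were called in no pair, and CD163 only with TMM factors, higher in ATAB than in ATFB. The leukocyte marker PTPRC had 2.17, 7.91, 9.59 and 16.8 RPKM. The 7 T cell markers summed to 2.40, 7.13, 12.3 and 18.9 RPKM and the 5 B and plasma cell markers to 5.90, 5.02, 57.6 and 44.1 RPKM. IGHG1, CD8B, GZMA and GZMB had 0 reads in ATFB and CD79A had 0 in ATAB. The S100A12 neutrophil marker had 3 reads or fewer in each library. In bulk tissue, fewer cells of a type and less RNA per cell cannot be told apart, and the part of these shifts in the members' values was not tested.

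Tissue markers shifted as well. The 6 adipocyte markers summed to 571, 3765, 4775 and 5251 RPKM, but they did not all follow this order. CIDEA had 26.0, 159, 164 and 41.9 RPKM and was called lower in ATAS than in ATAB and in ATAH. LEP had 3.24, 128, 118 and 74.8 RPKM and was called lower in ATAS than in ATAB with TMM or DESeq2 size factors. LIPE was called higher in ATAS than in ATAB, but this call was lost under at least 1 other scaling. The 6 fibroblast and preadipocyte markers summed to 11038, 7747, 2290 and 2998 RPKM, most of it from COL1A1, COL3A1 and DCN. COL1A1, COL3A1 and LUM were called lower in ATAH and ATAS than in both ATFB and ATAB, but DCN had 3916, 1115, 755 and 1155 RPKM and DLK1, a preadipocyte marker, had 566 RPKM in ATFB, 0 in ATAB and 1.91 or less in ATAH and ATAS. The 3 endothelial markers summed to 152, 228, 312 and 401 RPKM, of which VWF had 22.3, 95.8, 143 and 183 RPKM, while PECAM1 was called in no pair. The 3 mast cell markers summed to 32.5 to 44.8 RPKM. The largest of them, TPSB1, had 23.2, 21.5, 19.1 and 19.8 RPKM, highest in ATFB, and was called in no pair. KIT and CPA3 together made 9.30, 14.5, 15.5 and 25 RPKM. These 2 were called higher in ATAS than in ATFB, but the call of CPA3 was lost under at least 1 other scaling. The 3 NK cell markers summed to 8.12 to 13.2 RPKM, most of it from NKG7, while GZMA had 0, 16, 15 and 27 reads and all 3 adult libraries were called above ATFB for it. Of the red cell markers, HBG2 and ALAS2 were measured and summed to 2390 RPKM in ATFB against 1.54 or less in the adults.

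**Figure D5:**
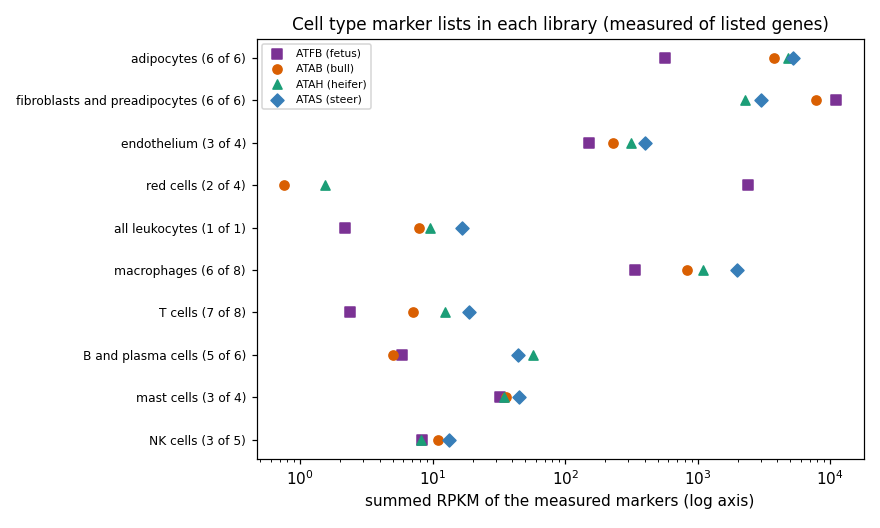
Summed RPKM (log axis) of the measured marker genes of each cell type, 1 point per library, with the number measured of those listed. The T cell sum lies at 2.40 RPKM in ATFB and 18.9 RPKM in ATAS, the macrophage sum is mostly CD74 (206 of 335.8 RPKM in ATFB and 1663 of 1964 in ATAS), and the red cell list has no point for ATAS because both genes had 0 reads there.

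The signal components that lie downstream of many members were mixed. Among 9 measured genes of the JAK-STAT list, 4 were called higher in ATAS than in ATAB, 3 higher than in ATFB and 1 higher than in ATAH, with none lower. These are 44.4%, 33.3% and 11.1%, beside 6.86%, 15.5% and 1.52% of all clusters. Under all 4 scalings SOCS3 and CISH kept the call over ATAB, SOCS3 and TYK2 that over ATFB, and the call over ATAH, of CISH, was lost. SOCS3, a feedback inhibitor that cytokines induce, had 7.76, 9.64, 27.6 and 52.9 RPKM, and CISH had 10.5, 4.35, 9.53 and 19.3 RPKM. STAT3, TYK2, PIAS1, SOCS1 and SOCS2 were not called between ATAS and ATAB. The 10 further cytokines and receptors outside the rule gave 5 genes called higher in ATAS than in ATAB, or 50% beside 6.86%, of which CSF1 and LIF kept the call under all 4 scalings. CSF1, the growth factor of macrophages, had 26.2, 27.3, 69.5 and 118 RPKM, and CSF2RB had 0.340, 3.88, 4.89 and 8.89 RPKM.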

How the data were processed

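Poly(A) RNA of 4 pooled samples was sequenced on an Illumina instrument, with CASAVA named in the submitters' processing notes. The authors aligned reads with SOAPaligner (version not given in the sources used here) and kept those that matched once. Their methods name the masked bosTau7 genome as the reference, whereas the deposited whole-number read counts, without normalization, are per UniGene cluster, and how reads were assigned to clusters is not given in the sources used here. The authors also deposited RPKM values and, as a percent, how much of the cluster was covered. Names and roles were read from the deposited sequence descriptions. Between 2 libraries a binomial test given the library totals was used (Python 3.11.15, scipy 1.17.1), with Benjamini-Hochberg adjustment over all clusters with a read and exact Clopper-Pearson 95% intervals, and ratios were given for members with at least 20 reads in the pair. Reads are not independent molecules. Clusters with 2 reads outnumbered those with 1 or 3 (2229 against 1544 and 913 in ATFB), so mates may count separately, and intervals may be too narrow. The stage test used edgeR 4.0.16 (R 4.3.3) with TMM factors. Scripts were tested on simulated data. Near-identical members were found with blastn 2.17.0+ (at least 90% identity over 200 bases).

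Members, lists and tests were chosen with earlier results of these data known. Values were given for the 15 members highest in any library, for called members with at least 50 reads in 1 library of the pair among the 10 largest rises or falls of a comparison, for the 4 members with most reads in each role group, and for members with 0 reads in 1 library and 50 or more in another. Alternatives were other scalings (TMM, DESeq2 1.42.0 size factors, ACTB), filters, thresholds, tests and, added after seeing the data, halved reads and removal of near-identical clusters. Chromosome positions were not analysed here. Values of some genes are not reported here.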

Additional observations from a re-analysis of the deposited data

Results flagged for a closer look

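IFIT1 and ISG20 were the members called in opposite directions against ATFB in different adult libraries. The log2 ratio of IFIT1 was -1.67 for ATAB over ATFB and 1.27 for ATAS over ATFB, from 345 reads in ATFB, 115 in ATAB and 850 in ATAS. For ISG20 the ratios were -2.72 and 1.54, from 50, 8 and 148 reads. ATAS against ATAB itself was called for both, at log2 ratios of 2.94 and 4.26, and these calls held under all 4 scalings. The difference was tested on the reads of these libraries and not over animals.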

How the results depend on the processing

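Another scaling, a minimum of 20 reads, removal of genes that only carry the word, halved reads and removal of the 15 near-identical clusters (the last 2 chosen after seeing the data) kept the number of called members within 1.5 times in all 6 pairs. With a log2 ratio of 2 as the limit, 32, 42 and 44 members were called against ATFB in ATAB, ATAH and ATAS, 11 in ATAH against ATAB, 18 in ATAS against ATAB and 8 in ATAS against ATAH, beside 9.8%, 11.1%, 12.7%, 1.59%, 2.34% and 0.972% of all clusters (16.3%, 21.1%, 21.8%, 5.61%, 9.18% and 4.02% of members). With a biological coefficient of variation set to 0.4, edgeR's exact test called 3, 6, 9, 0, 0 and 0 in the same order, beside 184, 229, 278, 13, 5 and 12 of all clusters, so no member was called between adult libraries once such a spread was assumed. Calls higher in ATAB than in ATFB were 53.0% of all calls, but 37.5% with ACTB as the scale and 42.9% with halved reads. Those higher in ATAH than in ATFB were 69.1% and 57.1% with ACTB, and those higher in ATAH than in ATAB were 76.3%, against 56.7% with TMM or DESeq2 size factors. TMM factors moved the median of all clusters by 0.18, -0.10 and -0.12 against ATFB and by -0.28 and -0.29 for ATAH and ATAS against ATAB, and ACTB moved it by -0.24, -0.27 and -0.25 against ATFB. The member median turned to -0.12 in ATAB and -0.071 in ATAH against ATFB with ACTB, and to -0.21 in ATAB with members of at least 100 reads. Among the ratios of members named by the rule, 21 calls were lost with TMM, 22 with DESeq2 size factors and 7 with ACTB, and 8, 10 and 14 were gained. The stage test called 26 members with library totals (15.6%, near the 14.7% of all clusters) and 57 with edgeR's likelihood ratio test (34.1%, beside 29.0%). Leaving out each adult library in turn gave 26 to 60 calls, and ATFB could not be left out. No paired analysis was possible because each group is 1 library without a replicate number. Depth limits the 37 members with fewer than 20 reads.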

Other observations

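CCL1 and its receptor CCR8 both had their highest count in the heifer library, a pair picked after the values were seen. CCL1 had 13, 17, 68 and 31 reads in ATFB, ATAB, ATAH and ATAS and CCR8 had 2, 2, 23 and 4 reads. ATAH was called higher than ATAB for both, at log2 ratios of 2.05 and 3.57. The ligands of CXCR3 and CCR7 did not run with their receptors in the same way. CXCR3 had 0, 6, 4 and 4 reads while its ligand CXCL10 had 4, 10, 51 and 76, and CCR7 had 11, 23, 52 and 39 reads while its ligand CCL21 had 1025, 394, 116 and 468.

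LOC781857, described as similar to interferon-induced protein 44, had 30, 1, 26 and 43 reads in the same order of libraries. The log2 ratio of ATAS over ATAB was 5.48 with a 95% interval of 2.93 to 10.82, and it was also picked after its values were seen.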
